A study of Homo sapiens and Mus musculus with 4 samples.

Results

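JAG1, NOTCH2 and HES1 are a ligand, a receptor and a target gene of the Notch pathway, and the regions around them were examined for binding of TEAD transcription factors. TEAD binding was profiled by chromatin immunoprecipitation and sequencing (ChIP-seq), and a peak is a region the authors listed as enriched for TEAD over a control library. Members were all listed peaks whose midpoint lay within 150 kb of the transcription start site (TSS) of one of the 3 genes. There were 70 such peaks of 69714 in all: 26 of 22681 in RD and 44 of 47033 in YAP-ERMS.

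RD is an established human cell line from an embryonal rhabdomyosarcoma, a childhood tumour with features of skeletal muscle. Its TEAD library was set against an IgG immunoprecipitation from the same line, and no treatment is named for either library. YAP-ERMS are mouse cells derived from tumours driven by YAP, a co-activator that binds DNA through TEAD factors. The YAP-ERMS tumours arose under Myf5-Cre or Pax7-CreER, drivers that act in the muscle lineage and in Pax7-expressing cells such as satellite cells, and the labels do not say which of these drivers the profiled cells carried. Their TEAD library was set against input chromatin. There are 4 libraries, 1 per group, with no replicates, so no value below has a replicate error and no difference was tested. The species, the control and possibly the depth differ between the lists, so values of RD and YAP-ERMS stand side by side and are not read as a difference in binding. The lists give no depth, read count, summit or fold enrichment, and the depth of the libraries is unknown.

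Notch signalling runs between touching cells. A ligand such as JAG1 on one cell binds a receptor such as NOTCH2 on its neighbour, the receptor is cleaved, and its intracellular part enters the nucleus and joins the DNA-binding protein RBPJ to switch on targets such as HES1, a basic helix-loop-helix repressor. In skeletal muscle, Notch signalling is known for keeping satellite cells quiescent and for holding back differentiation. TEAD factors bind the MCAT element, whose core is GGAATG.

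The TSS positions were known to the nearest 1 kb. In RD (hg19) they were 10.655 Mb on chromosome 20 for JAG1, 120.612 Mb on chromosome 1 for NOTCH2 and 193.854 Mb on chromosome 3 for HES1. In YAP-ERMS (mm9) they were 136.942 Mb on chromosome 2 for Jag1, 97.817 Mb on chromosome 3 for Notch2 and 30.065 Mb on chromosome 16 for Hes1. Distances are from the TSS to the midpoint of a peak along the direction of transcription, upstream or downstream. The direction of the human genes is that of RefSeq on GRCh38.p14, and that of the mouse genes was taken from general knowledge of them. Scores are those the authors deposited, taken here as -10 times log10 of the peak's p-value. On that reading the lowest score in both lists, which is 80, stands for a p-value of 1e-08, the limit in the names of the lists.

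Human promoters are shown for NOTCH2 and HES1, because a peak midpoint lay within 2 kb of the given NOTCH2 TSS in both lists and of the given Hes1 TSS in the mouse list alone. Each is the 250 bases before the start in RefSeq on GRCh38.p14, read 5′ to 3′ along the gene, and capitals mark matches to TGGGAA, the core that RBPJ binds. Both strands were searched for it, for GGAATG and its shorter part GGAAT, and for TGANTCA, the core bound by AP-1 factors; GGAAT lies within GGAATG, and both share the letters GGAA with TGGGAA. The NOTCH2 window lies at chr1:120069663-120069912 on the minus strand and the HES1 window at chr3:194135898-194136147 on the plus strand.
NOTCH2: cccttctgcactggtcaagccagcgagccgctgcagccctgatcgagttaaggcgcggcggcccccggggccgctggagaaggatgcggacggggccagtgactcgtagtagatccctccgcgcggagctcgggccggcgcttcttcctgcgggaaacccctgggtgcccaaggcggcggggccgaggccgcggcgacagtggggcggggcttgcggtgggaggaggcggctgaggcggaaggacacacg
HES1: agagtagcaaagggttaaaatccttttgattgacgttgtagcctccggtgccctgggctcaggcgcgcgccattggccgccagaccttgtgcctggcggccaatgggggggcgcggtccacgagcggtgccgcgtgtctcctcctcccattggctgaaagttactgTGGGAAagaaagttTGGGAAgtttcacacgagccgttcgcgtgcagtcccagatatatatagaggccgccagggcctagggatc

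The HES1 promoter held TGGGAA at 2 places, from 84 to 79 and from 70 to 65 bases before the start, both on the strand shown. No letters of the NOTCH2 window matched any of the 4 motifs, and in the HES1 window only TGGGAA matched. Among 35116 human promoter windows of this length, GGAATG was in 11.9%, GGAAT in 32.2%, TGANTCA in 6.57% and TGGGAA in 20.8%. The sequences of the peaks themselves, in hg19 and mm9, were not used here. By the given start, the RD peak at NOTCH2 began 0.27 kb downstream, whereas the window shown lies upstream. The nearest RD peak to HES1 had its midpoint 46.5 kb away, and the Hes1 peak at the start was in the mouse list alone. Matches in these windows, or their lack, therefore do not tell which motifs the peaks hold.

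The number of peaks set NOTCH2 apart from JAG1 and HES1 in RD, while in YAP-ERMS Notch2 and Hes1 had similar numbers. RD listed 5 peaks around JAG1, 18 around NOTCH2 and 3 around HES1. As a background, each chromosome was cut into bins of 300 kb, the size of the windows: 17.7% of the 9761 RD bins held at least as many peaks as the JAG1 window, 0.4% as many as the NOTCH2 window and 32.2% as many as the HES1 window. The mean RD bin held 2.31 peaks. The JAG1 and HES1 counts are therefore ordinary for this list, and that of NOTCH2 is among its highest.

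YAP-ERMS listed 9 peaks around Jag1, 17 around Notch2 and 18 around Hes1. At least as many were held by 25.7%, 4.95% and 3.91% of the 8533 YAP-ERMS bins, in the same order, and the mean bin held 5.49. Bins include stretches with no peak, which were 40.4% of the RD bins and 22.7% of the YAP-ERMS bins. Windows of the same size were also centred on each peak of a list. In RD, 63.9% of these held as many peaks as the JAG1 window, 4.19% as many as the NOTCH2 window and 84.6% as many as the HES1 window. In YAP-ERMS the shares were 64.7% for Jag1, 19.1% for Notch2 and 15.8% for Hes1. Measured against such peak-rich places, only the RD count at NOTCH2 of the 6 was matched by fewer than 5% of windows.

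**Figure D1:**
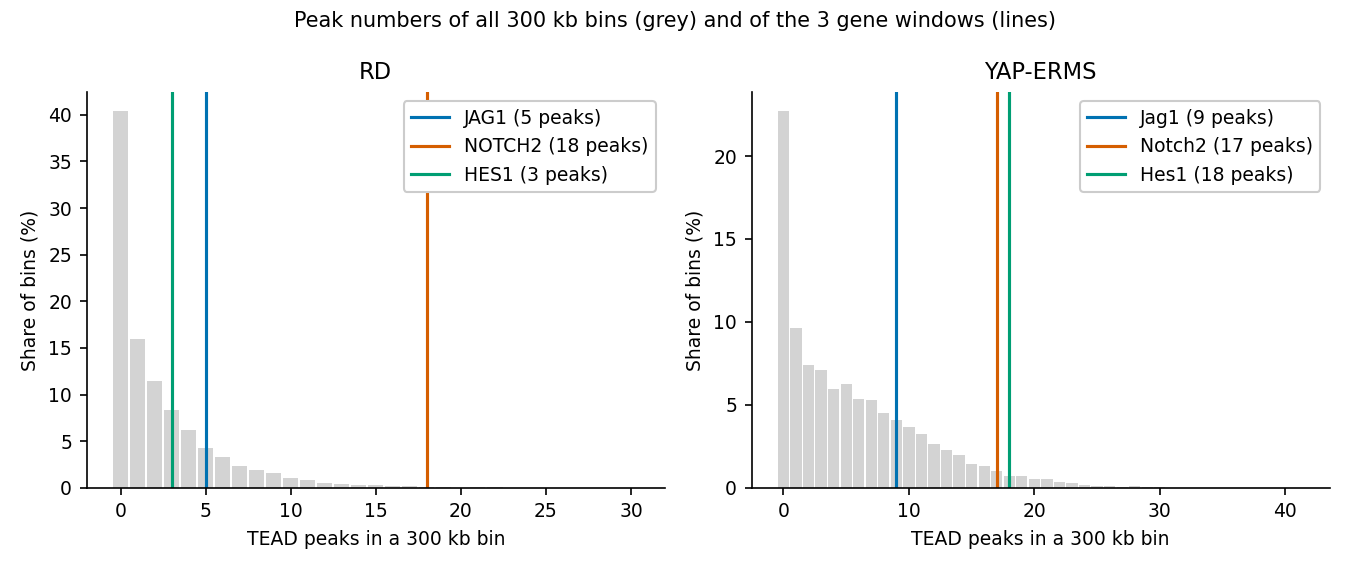
Share of all 300 kb bins (y axis, %) by the number of TEAD peaks they hold (x axis) in RD and YAP-ERMS, with lines at the counts of the 3 gene windows. NOTCH2 with 18 peaks lies far in the tail in RD, where JAG1 with 5 and HES1 with 3 lie in the body; in YAP-ERMS, Notch2 with 17 and Hes1 with 18 lie in the tail and Jag1 with 9 in the body.

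Peaks near these genes scored much like their lists in RD, and in YAP-ERMS none was among the peaks scoring over 1000. In RD, 14 of the 26 peaks scored above the list's median of 189, where 50% of all peaks do by construction, and 2 of 26 scored over 1000, against 5.47% of the list. In YAP-ERMS, 26 of the 44 peaks scored above the list's median of 205, where 50% do by construction, and none of 44 scored over 1000, against 7.38% of the list. The highest score there was 869.

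**Figure D2:**
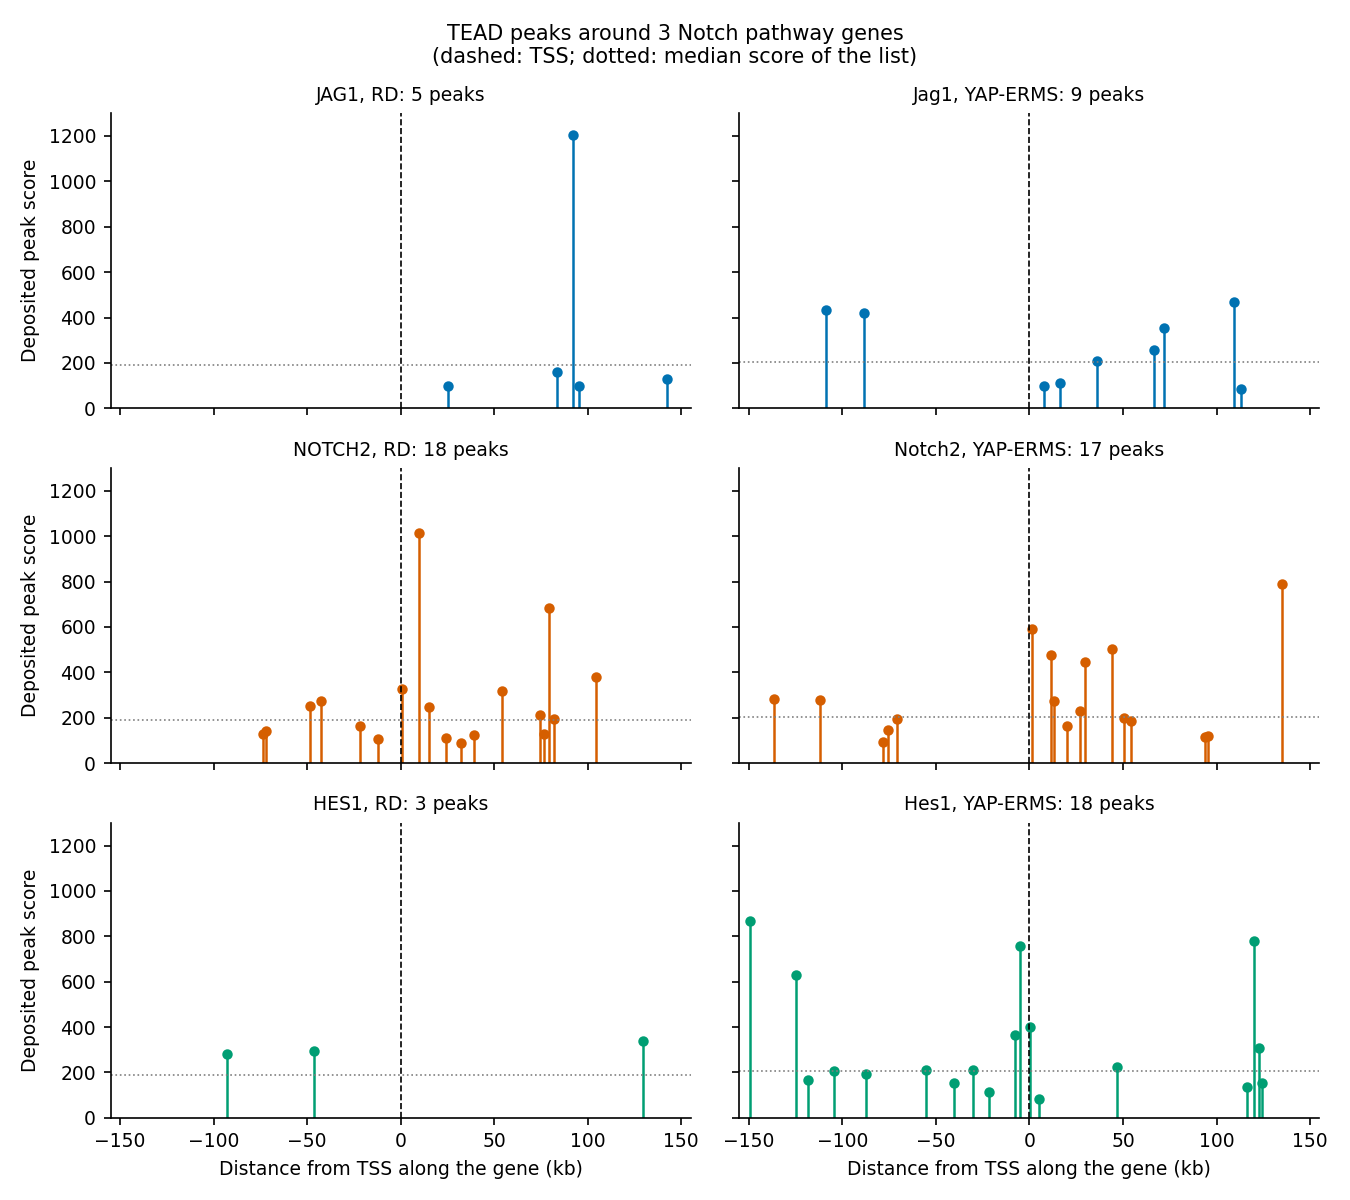
Deposited score of each TEAD peak (y axis) by its distance from the TSS along the gene in kb (x axis, downstream to the right), in 1 panel per gene and cell line, with a dashed line at the TSS and a dotted line at the median score of the list. RD peaks at JAG1 all lie downstream, and NOTCH2 peaks crowd the TSS and the gene in RD. In YAP-ERMS, Notch2 peaks crowd the gene's side of the TSS, with none from the TSS back to 70.6 kb upstream. HES1 has peaks at its TSS in YAP-ERMS but none within 46 kb of it in RD.

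JAG1 encodes a transmembrane ligand that activates Notch receptors. No peak lay at its TSS in either list. In RD all 5 peaks lay downstream, and the nearest, at 25.5 kb, had a score of 100.1 and a width of 192 bp. On a grid of 1 kb steps over the chromosomes, 23.2% of points had a peak midpoint as near as that. The gene is 36.3 kb long on GRCh38.p14, so this was the only one of the 5 that lay closer to the TSS than the length of the gene.

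The strongest RD peak of all 26 lay beyond the JAG1 gene by that length, 92.3 kb downstream of the TSS, at chromosome 20, 10562330 to 10563039. Its score was 1206, above 96.4% of the RD list, and its width was 710 bp. A weak peak stood on either side of it, at 83.7 kb with a score of 158 and at 95.5 kb with a score of 99.7, and the 3 formed a chain, meaning peaks with gaps of at most 12500 bp. The last of the 5, at 142 kb, had a score of 127 and formed a chain with a peak just outside the window. The window thus held 1 strong peak and 4 that scored below the list's median. The next protein-coding gene downstream in RefSeq is SLX4IP, and whether these peaks lie inside it was not analysed here.

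In YAP-ERMS the 9 Jag1 peaks lay on both sides, 2 upstream and 7 downstream, with no peak between 88.5 kb upstream and 8.01 kb downstream. The nearest, at 8.01 kb downstream, had a score of 99.1 and formed a chain with a peak at 16.4 kb that had a score of 110. A midpoint as near was found for 21.3% of grid points, so the nearness of this peak is ordinary. The 3 highest scores were 471 at 109 kb downstream, 435 at 109 kb upstream and 420 at 88.5 kb upstream. The widest peak, 1528 bp, lay 36.0 kb downstream with a score of 211, and the weakest, with a score of 85.95, lay 113 kb downstream beside the strongest. The peaks closest to the Jag1 start were thus among its weakest, and its 3 strongest were all at least 88.5 kb away. JAG1 in RD had its strong peak 92.3 kb downstream; whether the sites in the 2 genomes correspond was not analysed here.

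NOTCH2 encodes a receptor that Jagged ligands engage, and it was the only one of the 3 genes with a peak midpoint within 2 kb of its given TSS in both lists. In RD this peak ran from 120610996 to 120611732 on chromosome 1, with its midpoint 0.64 kb downstream of the TSS, a width of 737 bp and a score of 328. A midpoint as near was found for 0.951% of grid points, and for 0.549% or 2.31% with the TSS moved by 1 kb to either side. In YAP-ERMS it ran from 97817480 to 97819165 on chromosome 3, with its midpoint 1.32 kb downstream, a width of 1686 bp and a score of 591, and 4.69% of grid points had a midpoint as near. Both peaks began on the downstream side of the given start, with their near edges 0.27 kb and 0.48 kb from it, which is within the 1 kb to which the start is known. With the start 1 kb lower, the YAP-ERMS midpoint lay 2.32 kb from it, outside the 2 kb limit, and 7.8% of grid points had one as near; with the start 1 kb higher, the values were 0.32 kb and 1.17%.

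Downstream of the NOTCH2 start there were 12 peaks in each list. The farthest of the 12 in RD lay 104 kb from the TSS, less than the 158 kb length of the gene on GRCh38.p14, so they fall in the transcribed unit if its length is the same in hg19. The strongest, at 9.93 kb (120601573 to 120602577), had a score of 1014, and at 1005 bp it was also the widest of the 18 and wider than 99.1% of the list. The second and the third were 683 at 79.6 kb and 379 at 104 kb, and the weakest, 90.3, lay at 32.4 kb. The 3 strongest RD peaks of NOTCH2 were all on the gene's side of the TSS, where the scores had a median of 230 over 12 peaks. The 6 upstream peaks, which reached to 73.8 kb, had a median of 153 and a range from 107 to 274.

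Chains of at least 2 peaks held 16 of the 18 RD peaks at NOTCH2, against 51.1% of the RD list. The longest had 8 peaks over 61.3 kb, from 21.7 kb upstream to 39.2 kb downstream, and so ran across the TSS. Its scores ranged from 90.3 to 1014, and 3 of the 8 were above the list's median: the peak at the TSS, that at 9.93 kb and one at 14.9 kb with a score of 249. A tighter group of 4 peaks over 8.35 kb lay from 74.3 to 82.1 kb downstream, with the peak of score 683 among them, and 3 of the 4 scored above the median. In the whole RD list, 9.38% of peaks were in chains of at least 5.

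In YAP-ERMS the largest Notch2 chain had 9 peaks over 54.6 kb and began with the peak at the TSS, reaching 54.1 kb downstream. Scores in it ran from 163 to 591, and 6 of the 9 were above the list's median. Its 3 highest were the peak at the TSS (591), the one at 43.9 kb (504) and the one at 11.5 kb (475). Chains of at least 5 peaks held 17.6% of that list and chains of at least 2 held 64.7%, and 14 of the 17 Notch2 peaks were in chains. The strongest of the 17 peaks stood alone, 135 kb downstream (97951128 to 97952481), with a score of 789 that exceeded 89.1% of the list. The widest, at 1874 bp, lay 54.1 kb downstream, and the weakest, 92.1, lay 78.3 kb upstream in a group of 3 peaks that all scored below the list's median. From the start of Notch2 back to 70.6 kb upstream there was no peak. Over that range of distances from NOTCH2, RD had 4 peaks, at 11.9, 21.7, 42.5 and 48.2 kb upstream, with scores of 107, 164, 274 and 252. Whether the sequences in the 2 genomes correspond was not analysed here.

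RD peaks at NOTCH2 were wide for their scores. Width rises with score in these lists, so each peak was set against the median width of the peaks around it in score rank, up to 200 on each side. At NOTCH2, 17 of 18 peaks were wider than that median, where 49.6% of the RD list is, and 9 of 18 were over 1.5 times as wide, against 4.8% of the list. The median ratio was 1.54, with a range from 0.93 to 2.09. The widest for their scores were at 32.4 kb (413 bp, score 90.3), 54.3 kb (859 bp, score 317) and 74.3 kb (718 bp, score 212) downstream. The ratio of 1.94 for the peak 73.8 kb upstream was nearly as high, so wide peaks lay on both sides of the TSS. The measure and the limit of 1.5 were chosen after the widths had been seen.

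The RD peaks around the NOTCH2 window were closer to the usual width for their scores. The 39 RD peaks outside the window but within 2 Mb of the NOTCH2 TSS had a median ratio of 1.09, and 2 of them were over 1.5 times as wide. Over all of chromosome 1, 7.59% of peaks were. In YAP-ERMS, 2 of the 17 Notch2 peaks were over 1.5 times as wide, against 8.51% of the list, with a median ratio of 1.04. RefSeq lists 4 NOTCH2NL genes on human chromosome 1, which are partial copies of the 5′ part of NOTCH2, so RD reads there may match several places. How such reads were treated is not given in the sources used here, and the part of these copies in the number, scores or widths of the RD peaks was not tested.

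**Figure D3:**
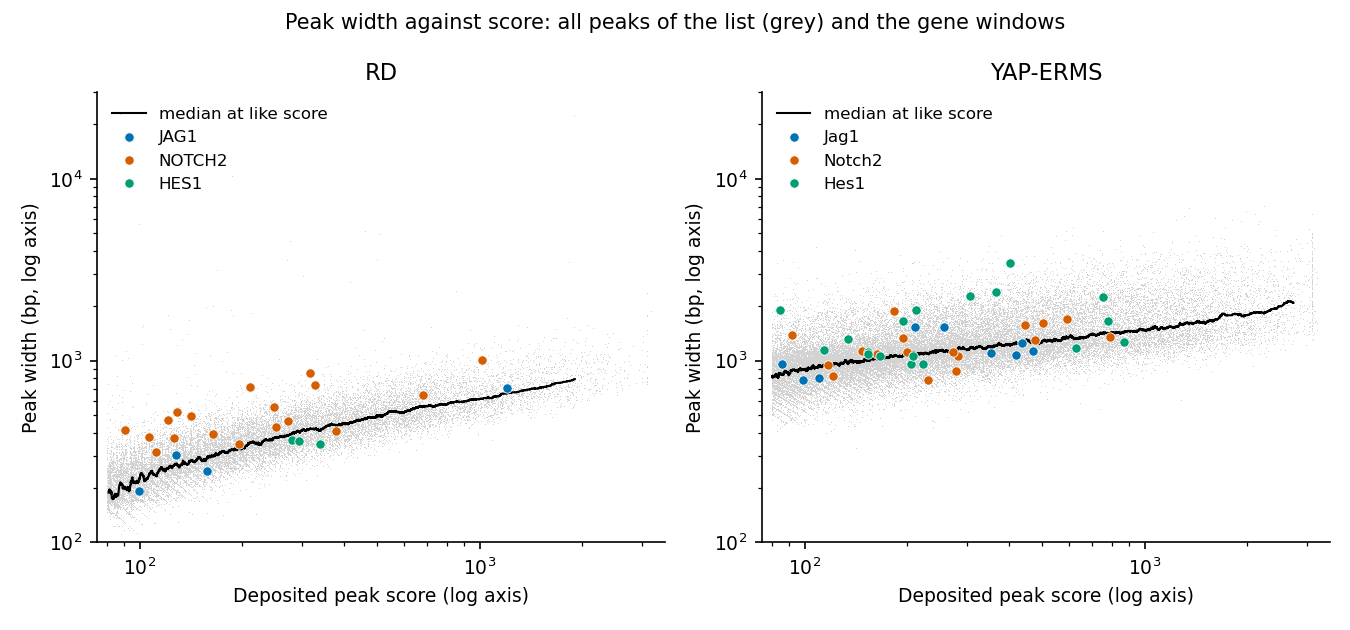
Peak width in bp (y axis, log) against deposited score (x axis, log) for all peaks of each list in grey, with the running median width of the peaks around each score rank as a black line and the peaks of the 3 gene windows in colour. In RD, 17 of 18 NOTCH2 peaks lie above the line and all 3 HES1 peaks below it; in YAP-ERMS, 13 of 18 Hes1 peaks lie above it.

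HES1 encodes a transcriptional repressor and is a standard target of activated Notch. Its TSS was covered by a peak in YAP-ERMS and had none near it in RD. The RD list held 3 peaks, at 93.1 kb and 46.5 kb upstream and 129 kb downstream, with scores of 280, 293 and 339. They were alike in width, at 366, 363 and 350 bp, and all were narrower than the median at their score. All 3 scored above the list's median, and none was part of a chain. A midpoint as near as 46.5 kb was found for 34% of grid points, so this distance is ordinary for the list. Beyond the window the next RD peaks were 230.0 kb upstream and 365 kb downstream.

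In YAP-ERMS the peak over the given Hes1 TSS ran from 30063828 to 30067283 on chromosome 16. It was 3456 bp wide, wider than 99.5% of the list and the widest of all 44 mouse members, and its score was 402. Its midpoint was 0.56 kb downstream of the TSS, and 2.03% of grid points had one as near, or 5.45% and 1.63% with the TSS moved by 1 kb to either side. It was the middle of a chain of 4 peaks over 14.9 kb, from 7.50 kb upstream to 5.31 kb downstream. The others were 2372 bp wide with a score of 365 at 7.50 kb upstream, 2241 bp wide with a score of 755 at 4.96 kb upstream, and 1888 bp wide with a score of 84.9 at 5.31 kb downstream. The gaps between them were 0.23 to 2.66 kb, and the 4 peaks covered 9.96 kb of the 14.9 kb. The score was highest upstream of the TSS, not over it.

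Farther out, the 2 highest Hes1 scores lay near the ends of the window. The strongest of the 18 peaks was at 149 kb upstream (29915211 to 29916471) with a score of 869, followed by 778 at 120.2 kb downstream (30184412 to 30186056). The peak of score 778 belonged to a chain of 4 within 9.17 kb, from 116 to 124 kb downstream, whose gaps went down to 0.08 kb. Between the chain at the TSS and these ends, no score was as high: the 6 peaks from 104 to 21.9 kb upstream had scores from 114 to 212, and a single peak at 46.7 kb downstream had 223. The peak at 125 kb upstream, with a score of 629, stood outside that stretch. The highest Hes1 scores in YAP-ERMS thus lay in 3 places, around the TSS and toward each end of the window. Each place also held peaks below the list's median of 205: 84.9 near the TSS, 166 at 118 kb upstream, and 134 and 153 in the chain downstream.

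Peaks at Hes1 in YAP-ERMS were also wide for their scores, with 13 of 18 above the median at like score and 7 over 1.5 times as wide. The list as a whole had 49.7% and 8.51%. The peak over the TSS had the highest ratio, 2.85, and all 4 peaks of the chain around it were above 1.5. Wide peaks were not limited to the window: within 2 Mb outside it, 18 of 119 peaks, or 15.1%, were over 1.5 times as wide, and the median ratio was 1.13 against 1.19 in the window. These flanks also had 9.65 peaks per 300 kb, above the list's mean of 5.49, so the surroundings of Hes1 were rich in peaks too. The flanks of NOTCH2 in RD had 3.16 peaks per 300 kb against 18 in the window, and those of Notch2 in YAP-ERMS had 8.43 against 17. Flank densities were taken over the full length of the flanks. Stretches without assembled sequence, which can hold no peak, were not left out and would lower them.

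**Figure D4:**
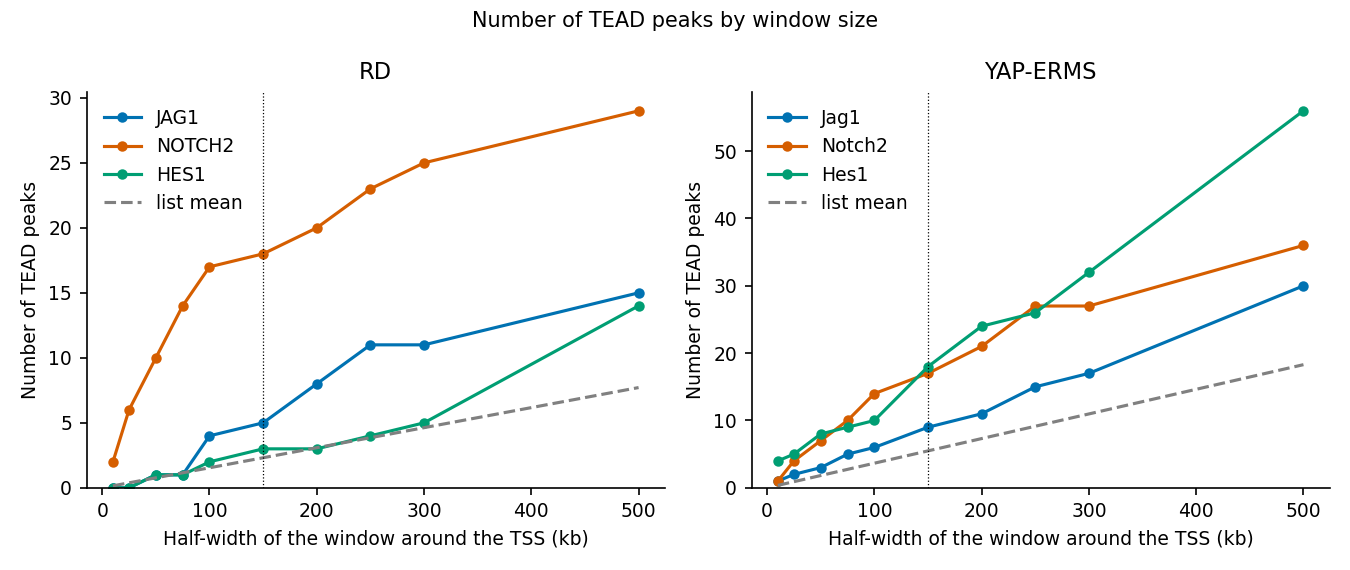
Number of TEAD peaks (y axis) whose midpoint lies within a given distance of the TSS (x axis, half-width in kb) for each gene, with the number expected from the mean of the list as a dashed line and the 150 kb limit as a dotted line. NOTCH2 in RD reaches 10 peaks within 50 kb and 17 within 100 kb and then flattens, whereas Hes1 in YAP-ERMS goes on climbing to 56 within 500 kb. Stretches without assembled sequence, which can hold no peak, were not left out.

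Counts were also taken over windows of other sizes, again without leaving out stretches that have no assembled sequence. Within 50 kb of the TSS there were 10 RD peaks at NOTCH2, 1 at JAG1 and 1 at HES1, and within 500 kb there were 29, 15 and 14. At the mean density of the list, 0.77 would lie within 50 kb and 7.71 within 500 kb. In YAP-ERMS the numbers within 50 kb were 7 at Notch2, 3 at Jag1 and 8 at Hes1, against 1.83 at the mean density, and within 500 kb they were 36, 30 and 56, against 18.3. NOTCH2 in RD thus had the largest share of its 500 kb count within 50 kb of the 6, and RD counts at JAG1 and HES1 stayed near the list's mean up to 50 kb.

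Peaks just outside the 150 kb limit bear on how the windows are read. At Hes1 in YAP-ERMS the first peak beyond it, 154 kb upstream, had a score of 988, higher than any inside, and it belonged to the same chain of 6 peaks as the member at 149 kb. On the downstream side the first outside lay at 154 kb with a score of 151. At JAG1 in RD the last inside was at 142 kb with a score of 127, and the first outside were at 155 kb downstream with a score of 155 and at 175 kb upstream with a score of 529. The peaks at 142 and 155 kb formed a chain of 2. For Jag1 in YAP-ERMS the first outside was at 156 kb upstream with a score of 240. Neither NOTCH2 window had a peak within 20 kb outside its limits.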

How the data were processed

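ChIP-seq for TEAD was made in RD and YAP-ERMS cells, with 1 TEAD and 1 control library each. Bowtie2, hg19 and mm9 are named in the submitters' processing notes, and the peak names are in the form MACS gives. The authors deposited a list of peaks for each cell line, with a score per peak that was taken as -10 times log10 of the p-value. The file names state a p limit of 1e-08 and the control used. Software versions, read filters and how duplicate or multiply mapping reads were handled were not stated in these sources.

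From the positions and scores, peaks with a midpoint within 150 kb of a TSS were taken (Python 3.11.15, numpy 2.4.6, pandas 2.3.3, matplotlib 3.10.9). Positions are 1-based, and width is end minus start as deposited. Bins of 300 kb covered each numbered chromosome and X between its outermost peaks. Background shares are descriptions, with no random placement and no test. Counting functions were tested on simulated data. Every peak is named in windows of 6 or fewer. Elsewhere the named peaks are the nearest, the 3 highest scoring, the widest and the weakest, together with chains; other peaks named were chosen after their values were seen. Genes and lists were chosen with earlier results of these data known. Other Notch pathway genes were not analysed here, because no annotation of hg19 or mm9 was used. RefSeq on GRCh38.p14 gave gene lengths, directions, neighbours and promoters, and held all 3 human genes.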

Additional observations from a re-analysis of the deposited data

How the results depend on the processing

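The 6 counts of peaks per gene and list were recomputed within 100 kb and 200 kb, over scores of 160 or more, by any overlap with the window and with peaks within 1 kb joined. Of these 30 values, 26 were within 1.5 times the count reported. Within 200 kb, JAG1 in RD had 8 peaks in place of 5. Over scores of 160 or more, JAG1 in RD had 1 peak in place of 5 and NOTCH2 in RD had 11 in place of 18. For scale, 41.4% of the whole RD list scored below 158 and 43.5% below 164, so this limit removes a large part of the list as well. Within 100 kb, Hes1 in YAP-ERMS had 10 in place of 18. These changes follow from the limits themselves, which take in more or fewer peaks. Shifting the bins by 150 kb kept every share of bins within 1.5 times its value. Moving the TSS by 1 kb or measuring to the nearest edge moved no nearest distance by more than 1 kb. For the peaks at the NOTCH2 start in both lists and at the Hes1 start in YAP-ERMS, moving the TSS changed the distance by over 1.5 times in at least 1 direction. The shares of grid points as near were recomputed with the moved TSS after the data were seen, and those of the same 3 peaks moved by over 1.5 times in at least 1 direction. Over scores of 160 or more, the nearest JAG1 peak was 92.3 kb away in RD and 36.0 kb away in YAP-ERMS, against 25.5 and 8.01 kb. No paired analysis was possible because each group has 1 library and no result comes from a test. The lists give no depth, so a gene with no peak near its TSS has none above the authors' limit, which does not show that TEAD is absent there.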
